A study of Mus musculus with 4 samples.

Results

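The genes described here encode the proteins that carry out RNA interference and microRNA silencing. They are the 10 genes Drosha, Dgcr8, Dicer1, Tarbp2, Ago1, Ago2, Ago3, Tnrc6a, Tnrc6b and Tnrc6c, chosen by name from the 54532 genes of the deposited table, and all 10 were found there. RNA sequencing was done on mouse astrocytes that received either NC siRNA or Ptbp1 siRNA, with 2 libraries per group. The labels give no mouse strain, age, dose, time after delivery or siRNA sequence, do not spell out NC, and leave unsaid if each library had its own culture, so p-values measure the spread between these libraries only. Both groups carried an siRNA, so a response to siRNA delivery that the groups share cannot be told apart from the resting state of the cells.

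A microRNA starts as a hairpin in a longer nuclear transcript, from which the Microprocessor, made of the nuclease DROSHA and its RNA-binding partner DGCR8, cuts it out. The nuclease DICER1, with its partner TARBP2, then trims the hairpin to a short duplex, and 1 strand of it is held by an Argonaute protein. Argonaute 2 can slice a matching transcript, which is how an siRNA acts. Other targets are silenced through the GW182 proteins (Tnrc6a, Tnrc6b, Tnrc6c), scaffolds that bind Argonaute and bring in enzymes that remove the poly(A) tail.

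Feedback on this machinery is known, and the sequences below show stretches of its transcripts that bear on it. DROSHA is known to cleave a hairpin within the Dgcr8 transcript, and microRNAs of the miR-103 and miR-107 family are known to target Dicer1. The Mir1306 hairpin lies on the minus strand at chr16:18284239-18284317 (GRCm38), within the coding part of exon 2 of 14 of the Dgcr8 transcript in GENCODE M21. Its mature arms are in capitals, as given by RefSeq (GRCm38.p6). In the mature miR-103 and miR-107, capitals mark the seed (bases 2 to 8), which both share. In the stretches of 3′ UTR, from GENCODE M21 transcripts, capitals mark ATGCTGC, the match to that seed, and each match shown is followed by an A.
Mir1306 hairpin: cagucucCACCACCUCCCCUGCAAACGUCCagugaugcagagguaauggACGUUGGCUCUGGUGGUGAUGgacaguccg
miR-103-3p: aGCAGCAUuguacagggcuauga
miR-107-3p: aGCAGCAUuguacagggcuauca
Dicer1 match: ctgatgcttcatgtaATGCTGCacttaggt
Dgcr8 match: cttatatgtacagtcATGCTGCaagggtgg
Ago1 match: cttcccgcaacggtaATGCTGCagaactgc
Ago2 match: aaatccccctttagtATGCTGCatatggat
The Dicer1 stretch is at chr12:104690162-104690191, the Dgcr8 stretch at chr16:18254037-18254066, the Ago1 stretch at chr4:126438733-126438762 and the Ago2 stretch at chr15:73096860-73096889, all on the minus strand. Of the 10 genes, 8 hold at least 1 ATGCTGC in the 3′ UTR, Drosha and Tnrc6a being the exceptions, and the 4 shown are those with a match followed by an A. Searched on the transcript strand only, ATGCTGC occurred once in the 3851-base 3′ UTR of Dicer1, and 27.3% of genes whose 3′ UTR is within 20% of that length hold it. For Dgcr8 the share among UTRs of like length was 11.6%, for Ago1 30.2% and for Ago2, which holds 2 matches, 59.2%. For the other holders the share was 65.9% (Ago3), 56.9% (Tnrc6b, also with 2 matches), 21.4% (Tnrc6c) and 2.71% (Tarbp2). For Drosha and Tnrc6a, which lack the match, it was 1.71% and 18.9%. These shares count ATGCTGC whether or not an A follows it. The let-7 seed match CTACCTC had no occurrence in the 3′ UTR of Dicer1, where 20.5% of UTRs of like length hold it. It had 3 in that of Ago2, where 46.1% do. Ago3 and Tarbp2 held 1 each, where 54.5% and 2.71% of UTRs of like length do, and the other members held none. Such matches are letters in a window and were not measured as sites here.

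The targeted gene serves as a check of the labels. Ptbp1, a splicing repressor, had 300.4 and 295 CPM (counts relative to the scaled library size) in the NC siRNA libraries, against 203 and 196 CPM in those with Ptbp1 siRNA, a log2 fold change of -0.58 (SE 0.063, 95% interval -0.71 to -0.45, edgeR quasi-likelihood adjusted p = 0.00127). The transcript was thus lowered in part, and both Ptbp1 siRNA libraries lay below both NC siRNA libraries. Library totals ran from 14557844 to 16009248 counts. Summed marker levels over 8 astrocyte markers were 2144 and 2023 CPM in NC siRNA 1 and NC siRNA 2. In Ptbp1 siRNA 1 and Ptbp1 siRNA 2 these levels were 2113 and 1855 CPM. Over 7 fibroblast and pericyte markers they ran from 5432 to 6387 CPM, over 8 microglia and macrophage markers from 741 to 786 CPM, over 7 neuronal markers from 244 to 259.7 CPM, and over 7 oligodendrocyte lineage markers from 319 to 353 CPM. Markers of other cell types were thus present beside those of astrocytes, and in such bulk RNA fewer cells of a type and less RNA per cell cannot be told apart. The 6 ependymal and choroid plexus markers summed to 775 CPM in NC siRNA 2 and to 377 to 411 CPM in the other libraries. The neuronal nuclear marker Rbfox3 had 0, 5, 1 and 4 counts in NC siRNA 1, NC siRNA 2, Ptbp1 siRNA 1 and Ptbp1 siRNA 2. It does not stand for the neuronal list, whose summed level came nearly all from its other markers. Of the 7 neuronal markers 4 had enough reads to be tested. The part of other cell types in the values below was not tested.

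All 10 genes were expressed at moderate levels and none passed a test of difference between the groups. The 326 to 3481 counts per gene and library put every one of them past the filter on low counts, and in NC siRNA their FPKM (the authors' unit, which divides fragments by gene length and scaled library size) lay between the 41.99 and the 78.2 percentile of the 16368 genes tested. No gene of the 10 passed an adjusted p of 0.05 in edgeR's quasi-likelihood test, against 0.0244% of all genes tested (0.00611% higher and 0.0183% lower with Ptbp1 siRNA). At an unadjusted p under 0.05 the count was also 0 of 10, against 3.98% of all genes tested. DESeq2 called 0 of the 10 (0.0136% of all genes) and limma on log2(FPKM + 1) called 0 (0% of all genes), and at an unadjusted p under 0.05 each again gave 0 of 10 (0.512% and 4.86% of all genes). In the authors' deposited table their adjusted p-values were all 1.00, where 0.0148% of genes passed, and 0 of the 10 had an unadjusted p under 0.05 there, against 0.56% of genes.

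**Figure D1:**
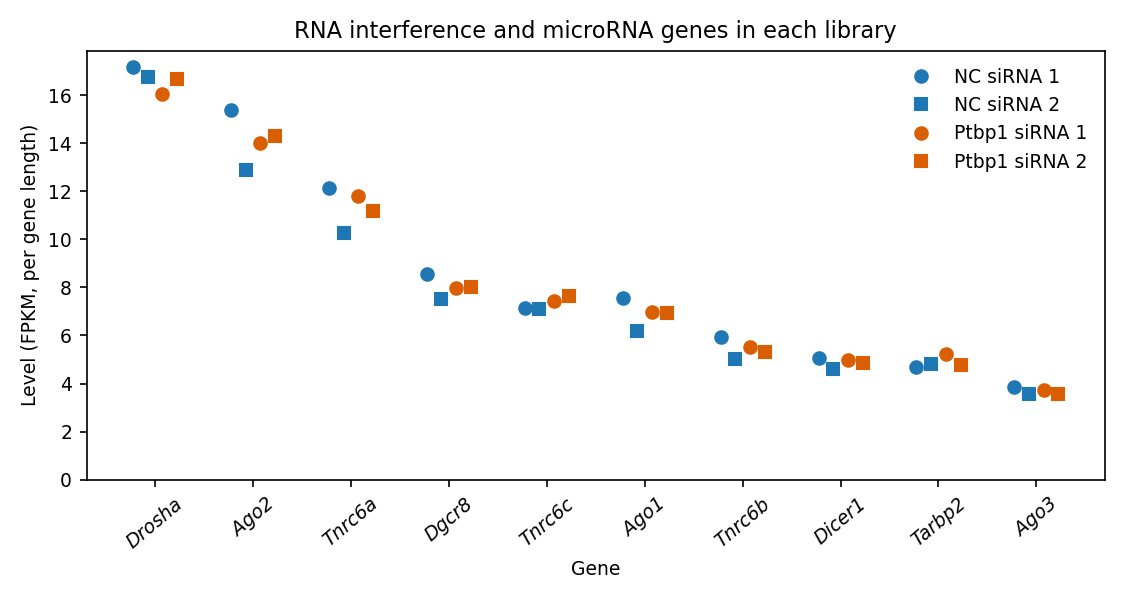
Level of each gene (FPKM, vertical axis from 0) in each of the 4 libraries, with genes ordered by their mean in NC siRNA. Circles are replicate 1 and squares replicate 2, blue for NC siRNA and orange for Ptbp1 siRNA. Drosha is highest at 16.05 to 17.2 FPKM and Ago3 lowest at 3.55 to 3.87 FPKM, and in Ago2 the NC siRNA libraries enclose those with Ptbp1 siRNA.

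Of the Microprocessor genes, which act first in the pathway, Drosha had the highest level of the 10. Drosha (ENSMUSG00000022191, GRCm38 chromosome 15, 12824815 to 12935291, plus strand) stood at 17.2 and 16.7 FPKM with NC siRNA and at 16.05 and 16.7 FPKM with Ptbp1 siRNA. In CPM both Ptbp1 siRNA libraries (95.7 and 99.4) lay below both NC siRNA libraries (102 and 99.8), with the closest pair 99.4 and 99.8 CPM. The log2 fold change of Drosha was -0.05 (SE 0.069, 95% interval -0.199 to 0.095, edgeR adjusted p = 1.00). Dgcr8 (ENSMUSG00000022718, chromosome 16, 18253948 to 18289246, minus strand) was at 8.54 and 7.52 FPKM with NC siRNA and at 7.995 and 8.02 FPKM with Ptbp1 siRNA. The NC siRNA libraries of Dgcr8 enclosed the others, and its log2 fold change was -0.0050 (SE 0.081, interval -0.18 to 0.17). The ratio of Drosha to Dgcr8 in FPKM was 2.12 ± 0.152 with NC siRNA and 2.04 ± 0.0504 with Ptbp1 siRNA (mean ± SD, n = 2 each).

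Rows for microRNA hairpins within these genes held no reads. Mir1306 and Gm24572, a neighbouring row of microRNA type in Dgcr8, were at 0 counts in each library, as were Gm47288 in Drosha and Mir5113 in Tnrc6b. A count of 0 allows up to 3 counts, or 0.187 to 0.206 CPM depending on the library. These zeros do not measure cleavage, since the treatment of reads in a hairpin that is also part of a Dgcr8 exon was not given in the sources used here.

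In the next step of the pathway, Dicer1 and its partner Tarbp2 stood at like levels per deposited gene length, though not per length of the longest transcript (8.26 and 14.3 CPM per kilobase with NC siRNA). Dicer1 (ENSMUSG00000041415, chromosome 12, 104687742 to 104751952, minus strand) was at 5.07 and 4.60 FPKM with NC siRNA and at 4.99 and 4.87 FPKM with Ptbp1 siRNA, with the NC siRNA libraries on either side. Its log2 fold change was 0.028 (SE 0.074, interval -0.13 to 0.19). Tarbp2 (ENSMUSG00000023051, chromosome 15, 102518192 to 102523676, plus strand), the member with the fewest reads at 326 to 348 counts, was at 4.71 and 4.80 FPKM with NC siRNA and at 5.24 and 4.79 FPKM with Ptbp1 siRNA. One Ptbp1 siRNA library of Tarbp2 lay within the NC siRNA range and the other above it. The log2 fold change of 0.077 (SE 0.12) had the widest interval of the 10 genes, from -0.17 to 0.32, which corresponds to a fold of 0.891 to 1.25.

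Ago2, the slicing Argonaute, was the most abundant of the Argonaute genes, with group means that were nearly equal. Ago2 (ENSMUSG00000036698, chromosome 15, 73095844 to 73184935, minus strand) stood at 15.4 and 12.9 FPKM with NC siRNA and at 14.0 and 14.3 FPKM with Ptbp1 siRNA. The NC siRNA libraries were thus the highest and the lowest of the 4, and the group means, 199 ± 25.1 and 199.7 ± 2.79 CPM, lay between them. The log2 fold change was 0.0019 (SE 0.078), with an interval of -0.16 to 0.17. Ago1 (ENSMUSG00000041530, chromosome 4, 126435012 to 126468583, minus strand) showed the same arrangement, at 7.57 and 6.19 FPKM with NC siRNA and 6.995 and 6.93 FPKM with Ptbp1 siRNA (log2 fold change 0.017, SE 0.092, interval -0.18 to 0.21). Ago3 (ENSMUSG00000028842, chromosome 4, 126331704 to 126429556, minus strand) was the lowest of the 10, at 3.87 and 3.57 FPKM with NC siRNA and 3.73 and 3.55 FPKM with Ptbp1 siRNA (log2 fold change -0.031, SE 0.078, interval -0.197 to 0.13). Ago1 and Ago3 are neighbours, 5455 bases apart on the same strand, with Ago4 beyond Ago1 at a gap of 20957 bases.

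Ago4, the remaining Argonaute gene and not among the 10, was the least abundant, at 159, 215, 165 and 179 counts in NC siRNA 1, NC siRNA 2, Ptbp1 siRNA 1 and Ptbp1 siRNA 2. Of the summed FPKM of the 4 Argonaute genes, Ago2 made up 53.3 ± 1.64% with NC siRNA and 53.6 ± 0.557% with Ptbp1 siRNA. Ago1 made up 25.9 ± 1.22% and 26.3 ± 0.270%, Ago3 14.1 ± 0.535% and 13.8 ± 0.512%, and Ago4 6.67 ± 2.33% and 6.33 ± 0.225% (mean ± SD, n = 2 each). For every Argonaute gene the group means differed by less than the SD of the NC siRNA libraries. With 2 libraries against 2, an exact permutation test cannot go below p = 0.3333, so none was run.

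**Figure D2:**
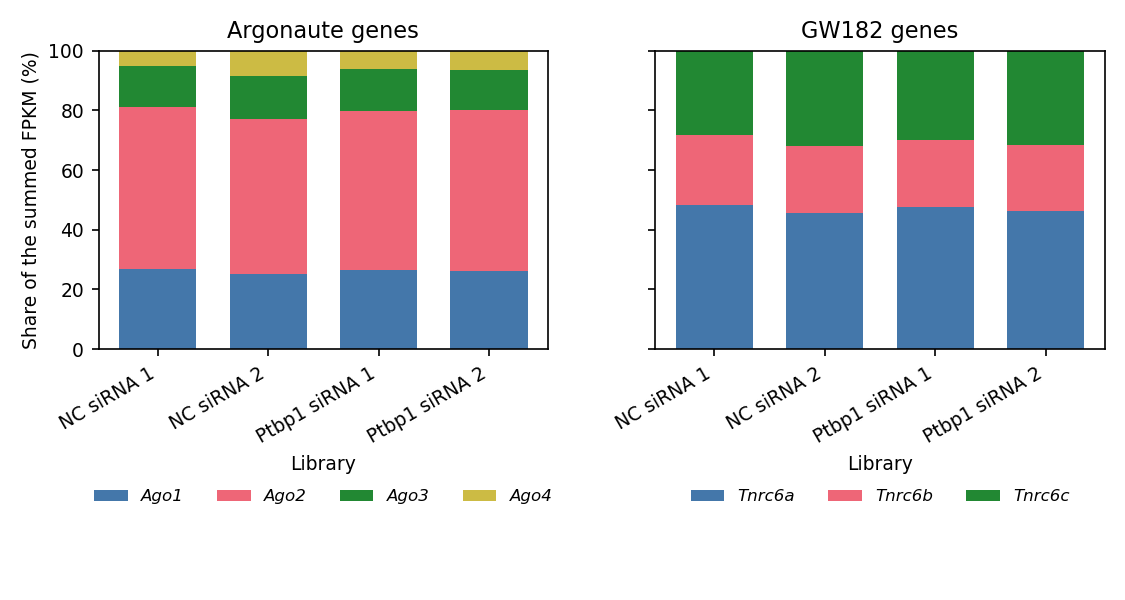
Share of each gene (percent, vertical axis) in the summed FPKM of its family, for the Argonaute genes (left) and the GW182 genes (right), with 1 bar per library. Ago2 takes 52.2% to 54.5% of the Argonaute sum and Tnrc6a 45.8% to 48.1% of the GW182 sum in all 4 libraries.

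Among the GW182 genes Tnrc6a was the most abundant per length. Tnrc6a (ENSMUSG00000052707, chromosome 7, 123123885 to 123195296, plus strand) was at 12.1 and 10.3 FPKM with NC siRNA and at 11.8 and 11.2 FPKM with Ptbp1 siRNA, the latter within the range of the former. Its log2 fold change was 0.038 (SE 0.079, interval -0.13 to 0.21). Tnrc6b (ENSMUSG00000047888, chromosome 15, 80711313 to 80941085, plus strand), with the longest deposited gene length of the 10 at 23677 bases, was at 5.94 and 5.03 FPKM with NC siRNA and at 5.52 and 5.33 FPKM with Ptbp1 siRNA, again within the NC siRNA range (log2 fold change -0.017, SE 0.079, interval -0.18 to 0.15). Tnrc6c (ENSMUSG00000025571, chromosome 11, 117654289 to 117763439, plus strand) was the member with the smallest unadjusted p. It stood at 7.13 and 7.12 FPKM with NC siRNA and at 7.44 and 7.62 FPKM with Ptbp1 siRNA, so that both Ptbp1 siRNA libraries were the higher ones. The log2 fold change of Tnrc6c was 0.08 (SE 0.069, interval -0.066 to 0.23), with an unadjusted p of 0.26 and an edgeR adjusted p of 1.00. The groups failed to overlap in CPM for 2 of the 10 genes, Drosha and Tnrc6c, which is 20% beside 31.5% of all genes tested. Of the summed FPKM of the family, Tnrc6a made up 46.9 ± 1.69% with NC siRNA and 47.0 ± 0.916% with Ptbp1 siRNA, Tnrc6b 23.0 ± 0.796% and 22.2 ± 0.161%, and Tnrc6c 30.04 ± 2.48% and 30.8 ± 1.08%.

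**Figure D3:**
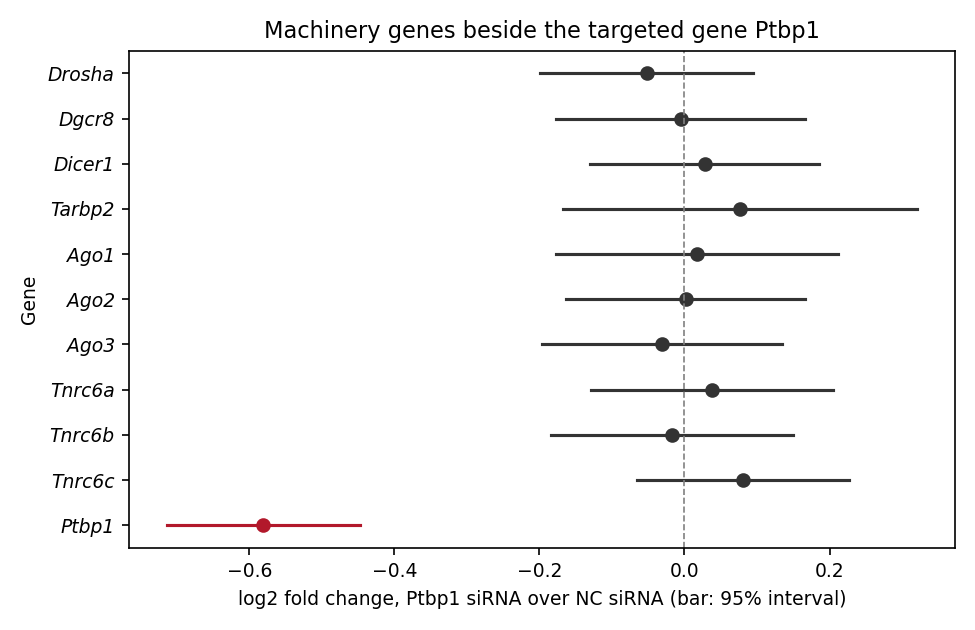
Log2 fold change of each gene with Ptbp1 siRNA over NC siRNA (horizontal axis), with bars for the 95% interval from edgeR's quasi-F statistic. The intervals of the 10 machinery genes include 0 and stay between -0.199 and 0.32, while that of the targeted gene Ptbp1 runs from -0.71 to -0.45.

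Over the 10 genes the log2 fold changes ran from -0.05 to 0.08, 6 above 0 and 4 below, with a median of 0.0094 beside 0.00036 over all genes tested. Every interval included 0, and the intervals reached no lower than a fold of 0.871 and no higher than 1.25. For 7 of the 10 genes the difference between the group means was under the SD of the NC siRNA libraries. In the authors' deposited table the corresponding values ran from -0.05 for Drosha to 0.08 for Tnrc6c.

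The order of the levels in NC siRNA, by FPKM, was Drosha, Ago2, Tnrc6a, Dgcr8, Tnrc6c, Ago1, Tnrc6b, Dicer1, Tarbp2 and Ago3. The libraries of Tnrc6c and Ago1 overlapped, as did those of Tnrc6b and Dicer1 and those of Dicer1 and Tarbp2, and the other neighbours in the order did not. The deposited gene length can exceed that of any single transcript. It is 4549 bases for Tarbp2, whose longest coding transcript in GENCODE M21 has 1523, and 16750 bases for Dicer1, whose longest has 9851. Per kilobase of the longest coding transcript, an alternative chosen after seeing the data, Tarbp2 moved from place 9 to 5, at 14.3 ± 0.196 CPM per kilobase with NC siRNA. Drosha stayed first at 22.1 ± 0.400 and Ago3 last at 3.97 ± 0.227 CPM per kilobase. Ago2 then made up 51.5 ± 1.58% of the Argonaute sum.

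Most of the 10 genes share little sequence with others. Of the distinct 50-base stretches of their transcripts, between 0.228% (Tnrc6b) and 3.46% (Ago2) also occur, on either strand, in transcripts of other genes, apart from Dgcr8 with 14.98% and Tarbp2 with 14.3%. For Tarbp2 the other gene was the pseudogene Gm18584, at 3 to 13 counts per library. Dgcr8 overlaps Trmt2a, a tRNA methyltransferase gene on the opposite strand, by 825 bases, and Ago2 overlaps Chrac1, a chromatin remodelling subunit gene on the opposite strand, by 1711 bases. Trmt2a had 1496 to 1573 counts and Chrac1 280 to 354 counts per library. Reads from these overlaps are uncertain, since a strand setting for the counting was not given in the sources used here. By gene coordinates AC084822.2 overlaps Dgcr8 by 4374 bases and Gm45846 overlaps Tnrc6a by 45794 bases on the same strand, both at 0 counts. Gm49512 overlaps Tnrc6b by 1416 bases on the same strand, at 0 to 5 counts per library. The treatment of reads shared between rows of the same strand was not given either.

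For most of these genes the spread between the NC siRNA libraries was larger than the difference between the groups, and it went one way. NC siRNA 1 was above NC siRNA 2 for 9 of the 10 genes, Tarbp2 being the exception, with a median difference of 0.16 on the log2 CPM scale. Over all genes tested 50.9% were higher in NC siRNA 1 and the median difference was 0.0038. This difference moved with gene length. Among genes with a mean of at least 5 CPM, its median was -0.14 for 376 genes under 1 kb, 0.077 for 2001 genes of 8 to 16 kb and 0.14 for 272 genes over 16 kb. Between the Ptbp1 siRNA libraries (1 minus 2) the median over the 10 genes was 0.026, with 6 of 10 above 0, and the medians by length ran from -0.041 under 1 kb to 0.021 over 16 kb. The part of gene length in the values of the 10 genes was not tested.

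**Figure D4:**
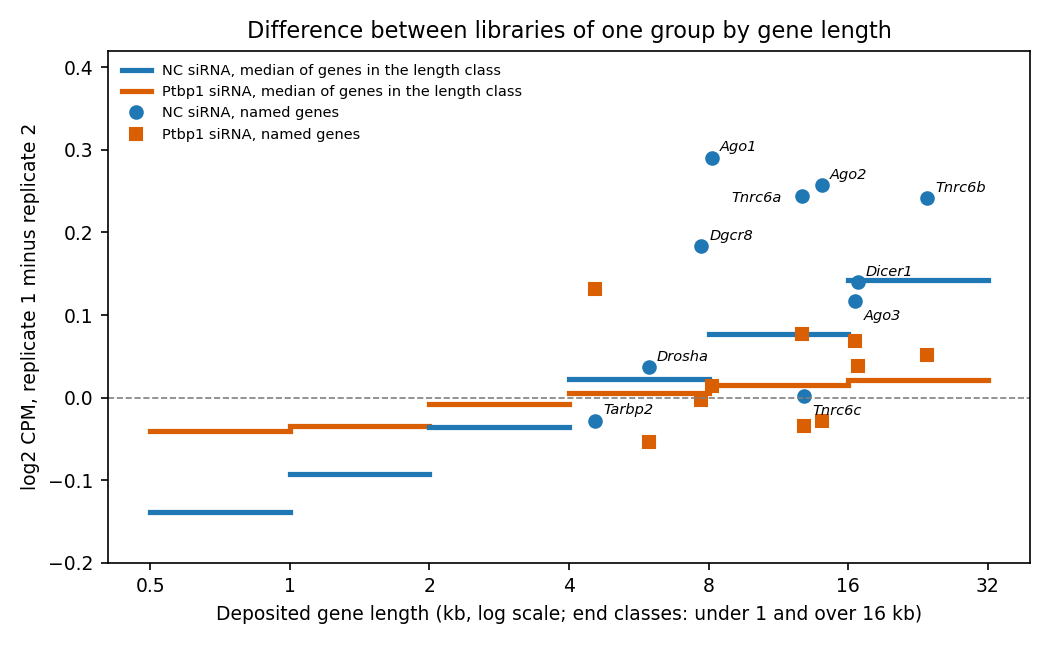
Difference in log2 CPM between replicate 1 and replicate 2 of a group (vertical axis) against the deposited gene length (kb, log scale). Lines are medians of all genes in a length class with a mean of at least 5 CPM, circles and squares are the 10 machinery genes, and blue is NC siRNA and orange Ptbp1 siRNA. The blue medians climb from -0.14 under 1 kb to 0.14 over 16 kb. The blue circles of Ago1, Ago2, Tnrc6a, Tnrc6b, Dgcr8 and, by less, Drosha lie above them.

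Leaving out a library changed the sign of some of these small values and none became a call. Such fits leave 1 library in a group, which is assumed to vary like the other group, and gave infinite prior degrees of freedom, so that no gene has a spread of its own. Without NC siRNA 2 the log2 fold change was -0.12 for both Ago1 and Ago2, and without NC siRNA 1 it was 0.17 for Ago1 and 0.13 for Ago2. The smallest unadjusted p over the 11 alternatives was 0.0376, for Tnrc6a without NC siRNA 1 (log2 fold change 0.16, edgeR adjusted p = 0.832). Drosha, Tnrc6c and Tarbp2 kept their sign in each of the 11, though without Ptbp1 siRNA 1 the value of Tarbp2 was 0.0093 and that of Drosha -0.026.

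Other genes of the pathway were counted from lists, and none passed the test over all genes. Of genes for microRNA maturation and export, 21 were found and 19 tested, with 12 values above 0, 7 below and a median log2 fold change of 0.012. Xpo5, the exporter of precursor hairpins, stood at 255.7, 255.2, 260 and 273 CPM in NC siRNA 1, NC siRNA 2, Ptbp1 siRNA 1 and Ptbp1 siRNA 2 (log2 fold change 0.062, SE 0.063); it was chosen after its values were seen. Prkra, which encodes another double-stranded RNA-binding partner of DICER1, was at 16.4 ± 3.05 and 19.4 ± 0.551 CPM (0.24, SE 0.14, interval -0.057 to 0.55). Tut7, a uridylating enzyme of precursor microRNAs, was at 75.3 ± 0.415 and 82.3 ± 1.67 CPM (0.13, SE 0.071). Mettl3, a methyltransferase gene, stood at 0.13 (SE 0.091) on the log2 fold change scale. The helicase gene Ddx5 and the transport GTPase gene Ran, the highest per length, had values of 0.0074 (SE 0.061) and 0.061 (SE 0.063) on the same log2 scale. At an unadjusted p under 0.05 there were 0 of these 19.

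Argonaute partners and loading factors gave 21 genes found and 19 tested, with 9 values above 0 and 10 below (median -0.00045, and 0 at an unadjusted p under 0.05). The chaperone genes Hsp90ab1 and Hspa8, whose products help load Argonaute, stood at 1275 ± 35.7 and 1261 ± 4.15 CPM and at 1042 ± 0.177 and 1079 ± 17.8 CPM. The helicase gene Mov10 was at 44.3 ± 1.33 and 41.4 ± 2.69 CPM (log2 fold change -0.099, SE 0.088). For Zswim8, which acts in the decay of microRNAs directed by their targets, the log2 fold change was 0.063, as it was for Fxr1, an RNA-binding protein gene (SE 0.067 and 0.068). All 29 genes for deadenylation, decapping and decay were tested, 14 above 0 and 15 below (median -0.0020, and 0 at an unadjusted p under 0.05). Those with the smallest p were Pan3, a deadenylase subunit gene (0.13, SE 0.079), and Cnot11 and Cnot6 of the CCR4-NOT complex (-0.12, SE 0.086 and -0.12, SE 0.087). For the poly(A)-binding protein gene Pabpc1 the value was 0.051 (SE 0.059), and for Lsm14a, a gene of translational repression, -0.034 (SE 0.064).

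**Figure D5:**
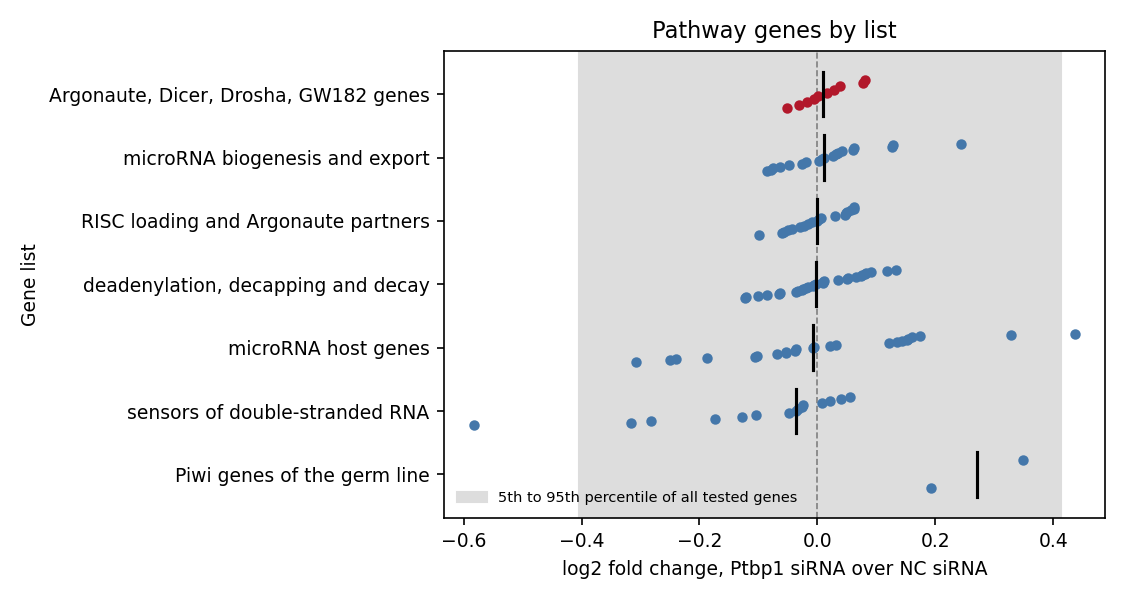
Log2 fold changes with Ptbp1 siRNA over NC siRNA (horizontal axis) for the 10 machinery genes (red) and for tested genes of 6 other lists (blue), with 1 point per gene and a black bar at the median of each list. The grey band spans the 5th to 95th percentile of all genes tested, -0.40 to 0.41, and each of the 10 genes lies near its middle.

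Genes whose transcripts host microRNAs were counted as whole genes, so that spliced host RNA and primary microRNA transcripts cannot be told apart. Of 28 such genes 27 were found, 24 were tested and 0 passed, with 11 values above 0 and 13 below (median -0.0068) and 2 at an unadjusted p under 0.05, Rian and Mcm7, where 3.98% of all genes tested had such a p. Rian, an imprinted RNA that holds microRNA genes, stood at 36.4, 34.9, 33.5 and 24.2 CPM in the same order of libraries, the lowest value being that of Ptbp1 siRNA 2. Its log2 fold change was -0.31 (SE 0.13, adjusted p = 1.00 in edgeR). Mcm7, a replication gene that hosts Mir106b, Mir93 and Mir25, was at 113 ± 2.75 and 125 ± 0.279 CPM (0.14, SE 0.067). Mir99ahg was at 36.9 ± 2.27 and 41.6 ± 1.68 CPM (0.17, SE 0.091). H19, which hosts Mir675, was the highest per length and varied most within the groups, at 326, 244, 294 and 189 CPM (-0.24, SE 0.15). H19 was called in the fit with a block for replicate number (log2 fold change -0.26, edgeR adjusted p = 0.0174). The labels pair no samples by that number. Calls also appeared in fits with a library left out. There 1 group holds a single library, and the spread comes from the other group and from all genes. H19 passed with NC siRNA 2 left out (log2 fold change -0.43, edgeR adjusted p = 6.95e-07). It also passed with Ptbp1 siRNA 1 left out, at -0.59 (adjusted p = 4.57e-06 in edgeR). Rian passed without Ptbp1 siRNA 1 (-0.56, adjusted p = 0.0221). These fits do not take in the spread of H19 and Rian within the group reduced to 1 library. Fibroblast and pericyte markers stood below 0 in 6 of 7 cases (median -0.14, 0 passed, 2 at an unadjusted p under 0.05), among them Col1a1 at 725, 606, 578 and 463 CPM (-0.35, SE 0.094) and Col1a2 at 701, 649, 614 and 523 CPM (-0.25, SE 0.075). Summed over all 7 markers, levels were 6287, 6013, 6387 and 5432 CPM in the same order of libraries, the highest in Ptbp1 siRNA 1. The part of these markers in the values of H19 and Rian was not tested. Mir22hg, the second highest, was at 96.7 ± 1.88 and 96.2 ± 4.09 CPM.

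The hosts of the family whose seed matches the Dicer1 stretch printed above, named after values were seen, are the pantothenate kinase genes Pank1, Pank2 and Pank3. Pank3, which holds Mir103-1, was at 144, 137, 128 and 133 CPM, both Ptbp1 siRNA libraries being the lower ones (-0.10 on the log2 scale, SE 0.067, adjusted p = 1.00 in edgeR). Pank1, which holds Mir107, was at 12.04, 15.5, 10.3 and 12.7 CPM (-0.25, SE 0.17, adjusted p = 1.00), where the groups overlapped. Pank2, which holds Mir103-2, was at 59.5, 58.5, 60.8 and 56.8 CPM (-0.0054, SE 0.077), and its groups overlapped. Hosts of miR-124, a neuronal microRNA known to target Ptbp1, were below the filter: Mir124-2hg had 0, 5, 5 and 1 counts and Mir124a-1hg 0, 1, 0 and 6. The mature microRNAs were not measured by these libraries.

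Genes of the RNA sensing list, mostly of sensors of double-stranded RNA but also Tlr7 and Tlr8, receptors of single-stranded RNA, and the adaptor Mavs, stood at a median log2 fold change of -0.037. Of the 15 tested, 4 were above 0, 11 below and 0 passed, beside 8210 above and 8158 below over all genes tested. The 1 gene with an unadjusted p under 0.05 (3.98% over all genes tested) was Ifih1, the gene of the sensor MDA5, at 136, 133, 119.6 and 118.7 CPM (-0.17, SE 0.066, interval -0.31 to -0.034, edgeR adjusted p = 1.00). For Ddx58, the gene of the sensor RIG-I, the value was -0.037 (SE 0.063), and for Oasl2, an interferon-induced gene, -0.10 (SE 0.065). Tlr8, an endosomal RNA receptor gene, was at 3.31 ± 0.619 and 2.21 ± 0.0072 CPM (-0.58, SE 0.31, interval -1.25 to 0.082). Microglia and macrophages are rich in such sensors. Of their 8 markers the 7 tested were also below 0 (median -0.24, 0 passed, 1 at an unadjusted p under 0.05), with no marker at 0. Their summed levels were 784 and 786 CPM in NC siRNA 1 and NC siRNA 2, and 772 and 741 CPM in Ptbp1 siRNA 1 and Ptbp1 siRNA 2. The part of these markers in the values of the sensor genes was not tested. Of the Piwi genes, Argonaute relatives of the germ line, Piwil1 was at 0 counts in each library. Piwil2 had 43 to 54 counts per library and a log2 fold change of 0.19 (SE 0.28), Piwil4 36 to 59 counts and 0.35 (SE 0.31), and neither passed.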

How the data were processed

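Libraries were made from 1.3 ug of total RNA each with a SMARTER mRNA-Seq kit, per the labels' protocols. The authors deposited 1 table with raw whole-number counts per gene, and FPKM values per gene length and scaled library size. It also holds the authors' group means (a signal of size-factor-scaled counts, not used here), their log2 fold change, p-value and adjusted p-value, and other columns such as the deposited gene length. Builds are GRCm38 and mm10, per the submitters' processing notes, with the aligner, counter, strand setting and annotation release not given in the sources used here.

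Counts of 29505 genes with a read were filtered with filterByExpr, which left 16368, and tested with edgeR 4.0.16 in R 4.3.3 (TMM, quasi-likelihood test, group as the only term, 2 residual and 14.0 prior degrees of freedom). Genes were called at a two-sided p under 0.05 after Benjamini-Hochberg adjustment over all genes tested. Standard errors and 95% intervals come from the quasi-F statistic. Intervals and zero-count limits of 3 counts cover counting error or the spread of these libraries only, since the labels mention no molecular identifiers. The libraries of each pair differed by more than counting noise, with a chi-square per degree of freedom of 5.70 (NC siRNA) and 5.03 (Ptbp1 siRNA) within the groups and 3.19 to 6.63 between them. The edgeR test was tried on simulated counts, and the other steps were not.

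The genes and lists were chosen with earlier results of these data known. Genes named by rule are the 10 genes, Ptbp1, up to 3 genes per list with the smallest p and the 2 with the highest FPKM. Genes that overlap one of the 10 were named as well. Named outside these rules were Ago4, Gm18584, Xpo5, Pank1, Pank2, Pank3, the hosts of miR-124, and the markers Rbfox3, Col1a1 and Col1a2. Of the listed symbols 4 were matched through RefSeq synonyms and Mir181a-1hg was not matched. Transcript lengths, exons and shared stretches come from GENCODE M21, microRNA sequences from RefSeq. Alternatives were RLE or no scaling, DESeq2 1.42.0, limma 3.58.1 on log2(FPKM + 1) for genes with a mean of at least 0.1 FPKM, no filter, a mean of at least 1 CPM, a block for replicate number, and each library left out in turn.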

Additional observations from a re-analysis of the deposited data

How the results depend on the processing

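None of the 10 machinery genes passed an adjusted p of 0.05 under any of the 11 alternatives. Of their 110 recomputed log2 fold changes 13 changed sign, of which 2 came from settings other than leaving out a library, both for Ago2, at -0.0045 with no scaling factor and -0.0037 with no filter on low counts. Leaving out each library in turn, the values ran from -0.12 to 0.17 for Ago1, from -0.12 to 0.13 for Ago2, from -0.088 to 0.026 for Ago3, from -0.0400 to 0.098 for Dicer1, from -0.093 to 0.088 for Dgcr8, from -0.078 to 0.16 for Tnrc6a, from -0.13 to 0.11 for Tnrc6b, from -0.078 to -0.026 for Drosha, from 0.0093 to 0.14 for Tarbp2 and from 0.064 to 0.097 for Tnrc6c. The number of calls over the whole table was 4, and it was 0 with limma on log2(FPKM + 1), with 1069 genes at an unadjusted p under 0.05, 50 with no filter on low counts and 34 to 75 without a library. The prior degrees of freedom became infinite with no filter and without a library, so these numbers of calls are not directly comparable. The replicate numbers pair no samples by the labels, and same-numbered libraries deviated together with a correlation of 0.16 over 11832 genes and a chi-square per degree of freedom of 3.19 and 4.11, under those within the groups. With the replicate block there were 36 calls over the whole table and 1 among the microRNA host genes, H19. The count of host genes called ran from 0 to 2 without a library. The number of calls in each of the 5 other lists was 0 under every alternative. The cause of these differences was not tested. A number of 2 libraries per group and 326 to 3481 counts per gene limit the changes that could be seen.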
